A study of Mus musculus with 8 samples.

Results

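The subunits of the 5 complexes of oxidative phosphorylation were examined in AML12, an established mouse hepatocyte line, after Casp8 was silenced. Members were all genes whose symbols begin with the names of complex I, III, IV and V subunits or of the mitochondrially encoded subunits, and the genes Sdha to Sdhd of complex II, which gave 125 of the 34945 named genes of the table. Of these, 87 were nuclear genes of subunits, 13 were mitochondrial genes, 9 were assembly factors that share the name pattern and 16 were pseudogenes or copies. The control group (Scr) received a scrambled siRNA and the other group (siCasp8) received siRNAs against Casp8, both at 40 nM for 48 hours in AML12 cells of wild-type genotype, with 4 libraries of poly-A RNA in each group. No source used here gives the siRNA sequences or their number, and AML12 is 1 cell line. The study was set up to find secreted genes that change on silencing, so the respiratory chain was measured along with all other genes.

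The respiratory chain sits in the inner mitochondrial membrane. Complex I oxidizes NADH and complex II oxidizes succinate, and both pass electrons through coenzyme Q to complex III, which hands them to cytochrome c, and complex IV then reduces oxygen. Complexes I, III and IV pump protons, and complex V, the ATP synthase, lets them return and makes ATP, which hepatocytes use for gluconeogenesis and urea synthesis. The mitochondrial genome encodes a few catalytic membrane subunits of complexes I, III, IV and V, and the nucleus encodes the rest of these complexes and all of complex II.

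Values are the deposited normalized values per gene, which are not reads. Casp8 was 3936, 3995, 4134 and 3825 in Scr and 1374, 1431, 1627 and 1490 in siCasp8, so all siCasp8 libraries lay below all Scr libraries and 37.3% of the Scr mean was left. Estimated depth was 30.7 to 51.8 M reads in Scr and 50.5 to 57.1 M reads in siCasp8, and Scr replicate 4 was the only Scr library within the siCasp8 range. Depth and treatment therefore largely ran together and cannot be fully told apart. Fits with depth as a covariate also had wider errors, as the SE of Casp8 was 0.053 without it and 0.087 with it. A call lost in those fits is thus no measure of a depth effect. Scr replicates 1 and 2, which had 31.5 and 30.7 M reads, stood apart from the other 6 libraries in some nuclear copies of mitochondrial genes. These were Gm28438, Gm10925, Gm28661 and Gm28437, described with those genes, and not all such copies. Of 10 hepatocyte markers, 8 passed the filter and none was at 0 in all libraries. Cps1 (at most 2.38) and Asgr1 (at most 13.2) did not pass it. The 10 markers summed to 65806 to 71168 in Scr and 82147 to 84837 in siCasp8. Of them, 4 were called higher (Alb, Ttr, Trf and Serpina1a) and 2 lower (Apob and Ambp). The mean of Alb was 86.4 in Scr and 3626 in siCasp8. The 6 cholangiocyte markers summed to 102420 to 111590 in Scr and 118270 to 125970 in siCasp8. Most of that sum was Spp1 (mean 89795 in Scr and 104060 in siCasp8). Spp1 and Sox9 were called higher and Krt19 and Krt7 lower. The 6 stellate cell markers summed to at most 169, with Des called higher and Col1a1 lower. Of the macrophage markers 3 of 5, and of the endothelial markers 2 of 5, were at 0 in all libraries. The macrophage markers summed to 655 to 720 in Scr and 430 to 515 in siCasp8. Csf1r fell from a mean of 569 to 347, while Cd68 was not called (117 in both groups). The part of these shifts in the results below was not tested.

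The nuclear subunits as a set stayed close to their control level. Of 87 nuclear subunit genes, 78 had a mean value of at least 10 and were tested with limma's moderated test on log2(value + 1), siCasp8 against Scr, with Benjamini-Hochberg adjustment over 14154 genes. At an adjusted p under 0.05, 14 rose, 9 fell and 55 passed in neither direction, so 29.5% were called, against a background of 40.2% of all tested genes in either direction, 19.4% higher and 20.8% lower. The median log2 fold change was 0.0035 over the 78 subunits, or -0.01 to 0.04 over the alternatives run, and 0.0025 over all tested genes. Only 4 subunits, 5.13%, changed by more than 0.25 on the log2 scale, against 34.4% of all tested genes and 23.9% of those with a mean of at least 500. Their median absolute log2 fold change was 0.084, against 0.16 over all tested genes and 0.13 over those with a mean of at least 500, and 76 of the 78 had such a mean. The Scr and siCasp8 values did not overlap for 15 subunits that were higher and 8 that were lower, beside backgrounds of 18% and 19.5%. Upper quartile rescaling called 22 subunits higher and 5 lower and quantile normalization called 20 higher and 4 lower. With estimated depth as a covariate 4 were higher and 2 lower, 7.69% of the 78, against 18.5% of all genes in that fit. Without Scr replicates 1 and 2, 12 were higher and 4 lower. In bulk RNA, fewer cells that express a gene and less of its RNA per cell cannot be told apart.

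**Figure D1:**
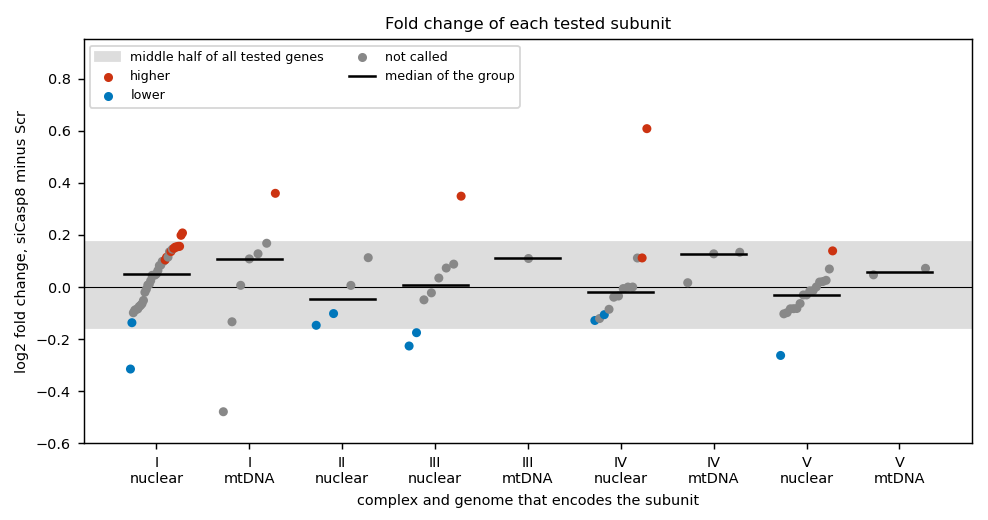
Log2 fold change (siCasp8 minus Scr, on the log2(value + 1) scale) of each tested subunit, 1 point per gene, by complex and by the genome that encodes it. Red points were called higher, blue points lower and grey points neither; black lines are group medians, and the grey band spans the 25th to the 75th percentile of all 14154 tested genes. Most nuclear subunits lie inside the band. Cox7a1, Uqcrh, Ndufb5 and Ndufb11 lie above it, and Ndufc1, Atp5g3, Uqcrq and Uqcrfs1 lie below it.

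Among the complexes, complex I held 37 of the 78 tested nuclear subunits and, in the main fit, most of those that rose. Of the 37, 10 rose and 2 fell, and 25 fold changes were above 0 (median 0.05 on the log2 scale). That is 32.4% called, against 40.2% of all tested genes (19.4% higher and 20.8% lower). With depth as a covariate 1 of the 37 was higher and 0 lower, or 2.7% against 18.5% of all genes. The calls of Ndufs3, Ndufa9, Ndufv1, Ndufv3, Ndufb9 and Ndufa13 were lost in 2 to 6 of the 8 fits that left out 1 library. That of Ndufs6, which fell, was lost in 6 of these fits. Complex II had 0 higher and 2 lower of 4 (median -0.05), complex III had 1 higher and 2 lower of 8 (median 0.0063), complex IV had 2 of each among 12 (median -0.02), and complex V had 1 of each among 17 (median -0.03). The name pattern leaves out Cyc1, the cytochrome c1 gene of complex III, so neither these counts nor those of core subunits below include it. Cyc1 was called lower (log2 fold change -0.12, limma adjusted p = 0.0225), but not with depth as a covariate (adjusted p = 0.294). The complex I median was above 0 under each alternative that was run, from 0.05 to 0.08. The complex IV median turned positive under upper quartile rescaling (0.0090), quantile normalization (0.02) and the depth covariate (0.01), without siCasp8 replicate 4 (0.0072), and was 0.00 without Scr replicates 1 and 2. The complex V median was above 0 under quantile normalization (0.0022) and without Scr replicates 1 and 2 (0.0074), and the complex III median was below 0 without siCasp8 replicate 2 (-0.00080). Differences between the complexes were not tested, since all genes come from the same libraries and the genes were chosen with earlier results of these data known. Of the 20 tested nuclear core subunits, which the catalytic machinery needs, 3 were higher and 4 lower, and of the 58 accessory subunits 11 were higher and 5 lower. These counts are 35% and 27.6% called, against 40.2% of all tested genes.

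The 4 nuclear subunits that were called under each of the main scalings, filters, pseudocounts, models and left-out libraries that were run were Uqcrh, Ndufb11, Cox7a1 and Atp5g3, and they belong to complexes III, I, IV and V. Their promoters are shown to let these genes be placed in the genome and compared. Each line gives the 100 bases before the RefSeq start on the gene's own strand (GRCm38.p6), in lower case, and capitals mark a match to the core motif of ETS factors. The stretches are chr4:116075071-116075170 (minus strand) for Uqcrh, chrX:20617620-20617719 (minus strand) for Ndufb11, chr7:30184071-30184170 (plus strand) for Cox7a1 and chr2:73911327-73911426 (minus strand) for Atp5g3.
Uqcrh: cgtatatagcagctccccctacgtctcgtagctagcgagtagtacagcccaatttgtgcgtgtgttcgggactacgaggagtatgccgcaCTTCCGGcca
Ndufb11: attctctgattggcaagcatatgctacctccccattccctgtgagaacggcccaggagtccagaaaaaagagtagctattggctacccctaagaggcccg
Cox7a1: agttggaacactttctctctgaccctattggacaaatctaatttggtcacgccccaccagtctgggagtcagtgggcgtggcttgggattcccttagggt
Atp5g3: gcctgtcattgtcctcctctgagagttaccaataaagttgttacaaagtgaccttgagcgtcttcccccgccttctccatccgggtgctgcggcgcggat

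The motifs of 4 factors known at respiratory gene promoters were searched on both strands of the RefSeq promoters, from 250 bases before to 50 bases after the start, where 65 tested nuclear subunits had an entry. The palindrome of NRF1 (10 bases) was in 5 of the 65 (7.69%) and in 2.21% of 10639 tested genes with a promoter. The ETS core CCGGAAG, bound by GABP among others, was in 17 (26.2%) against 19.2%. The YY1 motif AAGATGGCG was in 7 (10.8%) against 3.37%, and the motif of ZNF143 (11 bases) in 2 (3.08%) against 0.752%. A match is a description and not a bound site. Among the 12 higher subunits with an entry, 0 held the NRF1 motif, 2 the ETS core, 1 the YY1 motif and 0 the ZNF143 motif. Among the 7 lower ones these counts were 0, 1, 2 and 0, and among the 46 not called they were 5, 14, 4 and 2. The ETS match of Uqcrh lies 10 to 4 bases before its start.

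Complex I receives electrons from NADH in its N module, passes them to coenzyme Q in its Q module, and pumps protons in the membrane arm. In the Q module 4 of 8 subunits were higher and 0 lower (median 0.12), in the distal membrane arm 3 of 11 were higher and 0 lower (median 0.10), and in the N module 2 of 8 were higher and 1 lower (median 0.03). The proximal membrane arm had 1 higher of 4 (median 0.03), and the other 5 membrane arm subunits had 1 lower (median -0.05). Among all tested genes 40.2% were called, 19.4% higher and 20.8% lower.

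Ndufb11, an X-linked subunit of the distal membrane arm (chrX:20615326-20617619), was 4472, 4689, 4347 and 4611 in Scr and 5256, 5095, 5141 and 5293 in siCasp8. Every siCasp8 library was above every Scr library, and the mean rose from 4530 ± 151 to 5196 ± 93.6 (SD, n = 4 each), a log2 fold change of 0.20 (SE 0.036, limma adjusted p = 0.000758). Ndufb5, also of the distal arm (chr3:32736990-32751566), was 2067, 1932, 2190 and 2059 in Scr and 2381, 2466, 2436 and 2239 in siCasp8. These groups did not overlap either, and Ndufb5 rose by 0.21 (SE 0.049, limma adjusted p = 0.00448), a call lost with depth as a covariate (adjusted p = 0.147).

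Ndufa6, an accessory subunit at the Q module, was 4833, 4826, 4858 and 4851 in Scr and 5432, 5358, 5480 and 5273 in siCasp8. The Scr SD was only 14.7, no siCasp8 library overlapped Scr, and the siCasp8 mean was 111% of the Scr mean (log2 fold change 0.15, limma adjusted p = 0.00171), or 0.16 at adjusted p = 0.0556 with depth as a covariate. Ndufa7 (0.16), Ndufs3 (0.15) and Ndufa9 (0.10) of the same module were also higher with no overlap. Ndufs7, which carries the last iron-sulfur cluster of the electron path, did not overlap between the groups but was not called, at a log2 fold change of 0.15 (limma adjusted p = 0.0565). In the N module, Ndufv1, which binds FMN and NADH (0.14), and Ndufv3 (0.15) were higher and Ndufs6 was lower (-0.14). Ndufb9 of the distal arm (0.11) and Ndufa13, also known as GRIM-19, of the proximal arm (0.16) completed the 10 that rose, and Ndufa13 and Ndufv1 overlapped between the groups.

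Ndufc1, a small membrane arm subunit (chr3:51404677-51408988), moved the other way. Its values were 822, 668, 767 and 759 in Scr and 578, 574, 693 and 581 in siCasp8, and siCasp8 replicate 3 lay above Scr replicate 2, so the groups overlapped. The mean fell from 754 ± 63.6 to 606 ± 58.1 (SD, n = 4 each), with a log2 fold change of -0.31 (SE 0.081, limma adjusted p = 0.00829) and an adjusted p of 0.141 with depth as a covariate.

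**Figure D2:**
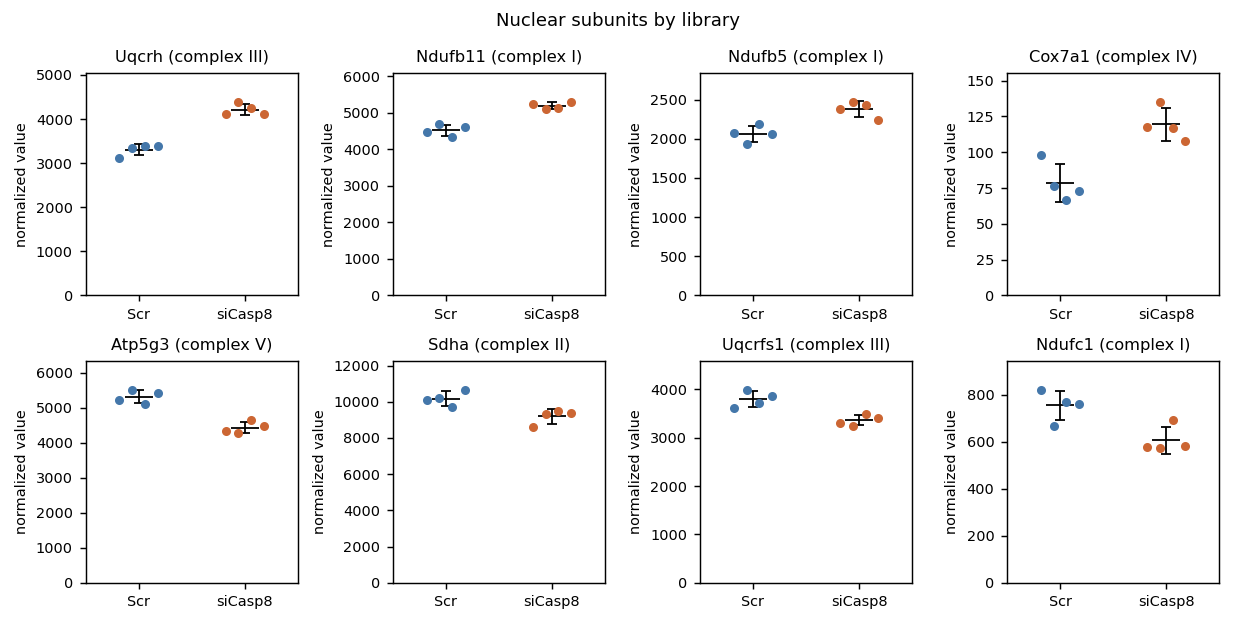
Normalized value (linear axis from 0) of 8 nuclear subunits in each library, Scr in blue and siCasp8 in orange, with the group mean and SD (n = 4 each) as bars. Uqcrh, Ndufb11, Ndufb5 and Cox7a1 are higher and Atp5g3, Sdha and Uqcrfs1 lower in siCasp8 with no overlap; the groups overlap for Ndufc1.

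Complex II is succinate dehydrogenase, made of a flavoprotein and an iron-sulfur subunit in the matrix and 2 membrane anchors. The flavoprotein gene Sdha (chr13:74322254-74350280) was 10086, 10218, 9696 and 10678 in Scr and 8607, 9311, 9470 and 9362 in siCasp8. No siCasp8 library reached the lowest Scr library, and Sdha fell to 90.3% of the Scr mean (log2 fold change -0.15, SE 0.041, limma adjusted p = 0.0125). Sdhb, the iron-sulfur subunit, fell by 0.10 on the log2 scale (limma adjusted p = 0.0486). The call of Sdhb was lost in 7 of the 8 fits that left out 1 library, and those of Sdha and Sdhb were lost under quantile normalization (adjusted p = 0.0755 and 0.0784). The anchors Sdhc and Sdhd had log2 fold changes of 0.11 (95% interval 0.02 to 0.21, limma adjusted p = 0.0551) and 0.0064 (95% interval -0.06 to 0.08) and were not called.

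Complex III passes electrons from coenzyme Q to cytochrome c through the mitochondrially encoded cytochrome b and the Rieske protein. Uqcrh, the hinge protein next to cytochrome c1 (chr4:116066965-116075071, minus strand), had the lowest adjusted p of all subunits. Its values were 3119, 3354, 3381 and 3378 in Scr and 4114, 4381, 4241 and 4112 in siCasp8. All siCasp8 libraries lay far above the highest Scr library, and Scr replicate 1 was the lowest. The mean rose from 3308 ± 127 to 4212 ± 128 (SD, n = 4 each), which is 127% of the Scr level, with a log2 fold change of 0.35 (SE 0.040, limma adjusted p = 2.3e-05) and of 0.30 with depth as a covariate (adjusted p = 0.00792).

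The Rieske iron-sulfur gene Uqcrfs1 (chr13:30540308-30545362) was 3625, 3999, 3714 and 3868 in Scr and 3304, 3253, 3495 and 3412 in siCasp8, a fall of 0.18 on the log2 scale without overlap (SE 0.042, limma adjusted p = 0.00504). Uqcrq, an accessory subunit (chr11:53427922-53430831), was 2245, 2169, 1907 and 1909 in Scr and 1748, 1668, 1800 and 1803 in siCasp8. It fell by 0.23 (SE 0.059, limma adjusted p = 0.00892), but Scr replicates 1 and 2 were well above the 2 other Scr libraries, and the difference was -0.07 with depth as a covariate (adjusted p = 0.592). The call of Uqcrfs1 was also lost with depth as a covariate (log2 fold change -0.18, adjusted p = 0.0976). The core proteins Uqcrc1 and Uqcrc2, which face the matrix, had log2 fold changes of 0.03 and 0.09 and were not called.

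Complex IV has several subunits with isoforms used in different tissues. Cox7a1, the isoform of subunit 7a known from heart and muscle (chr7:30184144-30186078), was 97.7, 76.6, 66.6 and 73.2 in Scr and 118, 135, 117 and 108 in siCasp8. It did not overlap between the groups and rose from 78.5 ± 13.4 to 119 ± 11.4 (SD, n = 4 each), a log2 fold change of 0.61 (SE 0.14, limma adjusted p = 0.00524) and of 0.76 with depth as a covariate (adjusted p = 0.0460). Cox7a2, the liver-type isoform, was 2663, 2630, 2765 and 2635 in Scr and 2744, 2636, 2669 and 2645 in siCasp8. Its log2 fold change was 0.00 with a 95% interval of -0.08 to 0.08.

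The other liver-type or common isoforms Cox6a1 (-0.09), Cox6b1 (0.00), Cox7b (-0.0059) and Cox8a (-0.03) were not called. Cox4i1, the common isoform of subunit 4, rose by 0.11 (limma adjusted p = 0.0346). The call of Cox4i1 was lost in 5 of the 8 fits that left out 1 library and with depth as a covariate (adjusted p = 0.371). The tissue isoforms Cox4i2, Cox6a2, Cox6b2, Cox7b2, Cox8b and Cox8c, the relative Ndufa4l2 of Ndufa4 and the copy Cox6c2 of Cox6c had means from 0 to 2.57 over the libraries and were not tested. Cox5a (-0.13) and Cox6c (-0.11) were lower with no overlap, and the calls of both were lost under upper quartile rescaling, with adjusted p = 0.0780 and 0.131. Ndufa4, first assigned to complex I and now counted with complex IV, had a log2 fold change of -0.12 and was not called (limma adjusted p = 0.0555). Cox7a2l, a factor that joins complexes III and IV into supercomplexes, rose by 0.13 (limma adjusted p = 0.00582), a call lost with depth as a covariate (adjusted p = 0.134).

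Complex V turns through a membrane ring of c subunits, and 3 nuclear genes encode the same mature c protein. Atp5g3 (chr2:73908447-73911326) was 5217, 5523, 5109 and 5432 in Scr and 4334, 4276, 4648 and 4485 in siCasp8. The groups did not overlap, and the mean fell from 5320 ± 191 to 4436 ± 166 (SD, n = 4 each), with a log2 fold change of -0.26 (SE 0.040, limma adjusted p = 0.000217) and -0.27 with depth as a covariate (adjusted p = 0.0177). Atp5g1 was 1599, 1556, 1284 and 1390 in Scr and 1572, 1460, 1396 and 1470 in siCasp8 (0.02, limma adjusted p = 0.838). Atp5g2 was 1104, 1154, 801 and 795 in Scr and 998, 781, 960 and 998 in siCasp8 (-0.03, limma adjusted p = 0.874), with Scr replicates 1 and 2 above the other 6 libraries.

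Atp5g2 shares 37.5% of its transcript stretches of 31 bases with Gm10175, an annotated transcribed processed pseudogene (chr7:23946646-23947290), which was singled out after its values were seen. Gm10175 was listed at 4384, 4573, 4142 and 4588 in Scr and 5426, 5132, 5157 and 5327 in siCasp8, with no overlap. It rose by 0.25 (SE 0.041, limma adjusted p = 0.000359), and the sum of Atp5g2 and its copies rose from 5385 ± 328 to 6194 ± 227 (SD, n = 4 each), a log2 fold change of 0.20 (limma adjusted p = 0.00402). So Atp5g2 alone did not change detectably, and its sum with copies rose while Atp5g3 fell. The sum of Atp5g1 and its copy had a log2 fold change of 0.03 and was not called. How reads were split between a gene and its copy cannot be seen in the deposited values.

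The catalytic head genes Atp5a1 and Atp5b had log2 fold changes of -0.01 and -0.08 (limma adjusted p = 0.788 and 0.0605). Atp5c1, the gamma subunit of the central stalk (chr2:10056016-10080510), was 8332, 8624, 8784 and 8632 in Scr and 9457, 9453, 9463 and 9462 in siCasp8. The siCasp8 libraries differed by an SD of only 4.88, and the gene rose by 0.14 (SE 0.030, limma adjusted p = 0.00279), a call lost with depth as a covariate (adjusted p = 0.126). None of the 4 tested peripheral stalk genes and none of the 5 other membrane genes was called, with log2 fold changes from -0.10 to 0.07, although Atp5mpl was called with depth as a covariate (adjusted p = 0.0473).

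**Figure D3:**
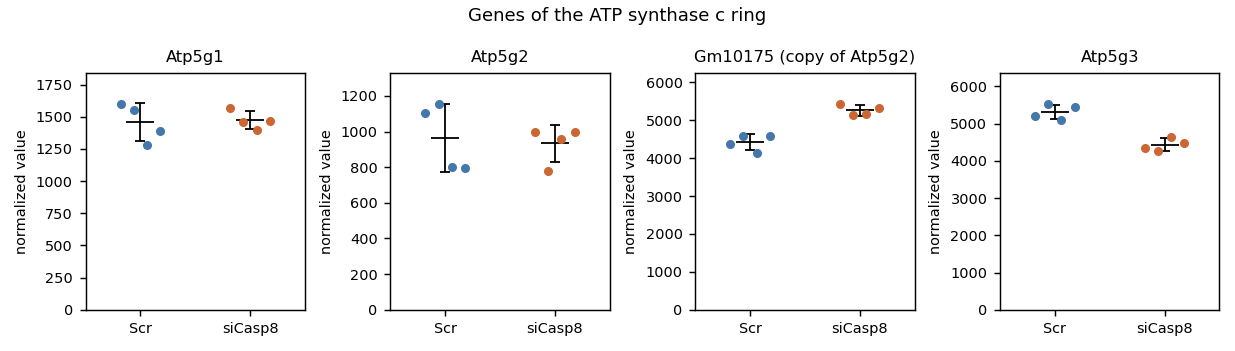
Normalized value (linear axis from 0) of the 3 c ring genes and of Gm10175, the annotated copy of Atp5g2, in each library, with group mean and SD (n = 4 each). Gm10175 is higher and Atp5g3 lower in all siCasp8 libraries, while the groups overlap for Atp5g1 and Atp5g2.

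The 13 mitochondrial genes were all tested, and 1 was called, which is 7.69% against the 40.2% background. Their median log2 fold change was 0.11, with 11 of 13 values above 0, against 0.0035 for the nuclear subunits. The median was -0.0089 without Scr replicate 2 and -0.0069 without Scr replicates 1 and 2. In Scr the mitochondrial genes took 5.23%, 3.90%, 5.82% and 4.59% of each library's total value, and in siCasp8 they took 5.23%, 5.61%, 5.26% and 4.68%. Scr replicates 2 and 3 were the lowest and the highest of all libraries, so the spread within Scr enclosed all siCasp8 libraries. The nuclear subunits together took 0.661% ± 0.0132 of the Scr total and 0.676% ± 0.0028 of the siCasp8 total (SD over 4 libraries), a far narrower spread.

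**Figure D4:**
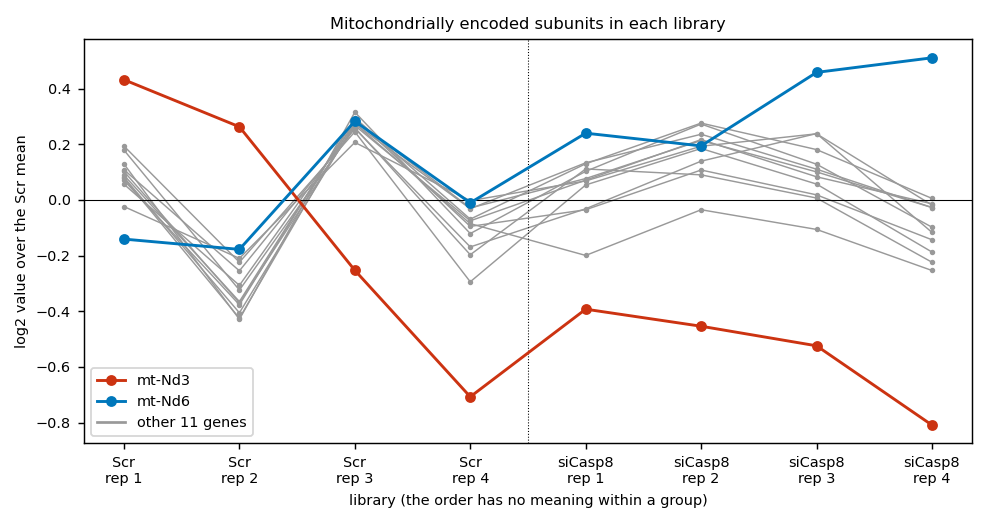
Log2 of each mitochondrial gene's normalized value over its Scr mean in each of the 8 libraries, 1 line per gene; the order of libraries within a group has no meaning. Within Scr, the grey genes are lowest or near lowest in replicate 2 and highest in replicate 3, as mt-Nd6 (blue) also is, while mt-Nd3 (red) is highest in replicate 1 and lowest in replicate 4.

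Per length, mt-Atp6 of complex V and the 3 complex IV genes had the highest values of the 13. Per 1000 bases of transcript, the Scr mean was 391980 for mt-Atp6, 365940 for mt-Co1, 363810 for mt-Co2 and 353610 for mt-Co3, against 165380 for mt-Cytb of complex III. The complex I genes ranged from 248.7 per 1000 bases for mt-Nd6 to 224140 for mt-Nd1. The libraries were of poly-A RNA, and how well each mitochondrial transcript was captured was not tested, so these values do not rank transcript levels. For mt-Co1, the catalytic subunit of complex IV, the values were 598060, 426810, 683530 and 553100 in Scr and 620060, 665750, 610280 and 554730 in siCasp8, with a log2 fold change of 0.13 and a 95% interval of -0.12 to 0.38. For mt-Cytb they were 199630, 140930, 230780 and 185440 in Scr and 199520, 219350, 202850 and 185600 in siCasp8 (0.11, 95% interval -0.14 to 0.36). Mitochondrial against nuclear encoding was not tested as such. Of the remaining complex I genes, mt-Nd1 had a log2 fold change of -0.13, mt-Nd2 of 0.0067, mt-Nd4 of 0.13, mt-Nd4l of 0.17 and mt-Nd5 of 0.11.

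mt-Nd6, the only one of the 13 encoded on the light strand, was 117, 114, 157 and 128 in Scr and 152, 148, 177 and 184 in siCasp8. Scr replicate 3 lay within the siCasp8 range, so the groups overlapped, and mt-Nd6 rose by 0.36 on the log2 scale (SE 0.13, limma adjusted p = 0.0439). This call was lost with depth as a covariate (0.24, adjusted p = 0.498), under quantile normalization, without a filter, without Scr replicates 1 and 2 together, and without Scr replicate 1, Scr replicate 2, Scr replicate 4, siCasp8 replicate 1, siCasp8 replicate 3 or siCasp8 replicate 4.

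mt-Nd3 (chrM:9459-9806) had the largest difference of the 13 and was not called. It was 24792, 22050, 15424 and 11258 in Scr and 14002, 13420, 12782 and 10492 in siCasp8, with a log2 fold change of -0.48 (SE 0.20, limma adjusted p = 0.0690), and was called without Scr replicate 4 (-0.69, adjusted p = 0.00261). With depth as a covariate its direction turned, to 0.31 (adjusted p = 0.142). Scr replicates 1 and 2 lay above the other 6 libraries. A nuclear copy, Gm28438, lies among other unprocessed pseudogenes of mitochondrial genes at chr1:24612775-24613119 (minus strand) and holds 98.1% of the stretches of 31 bases in mt-Nd3. The first 60 bases of both transcripts (GENCODE M21, GRCm38) are shown because their values have to be read together, and capitals mark the base that differs.
mt-Nd3: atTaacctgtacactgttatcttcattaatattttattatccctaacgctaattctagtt
Gm28438: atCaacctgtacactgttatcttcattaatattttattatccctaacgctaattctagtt

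Over the 345 bases that both transcripts share, T3C was the only difference, with positions counted from 1 at the 5′ end of mt-Nd3 and the base of mt-Nd3 given first. Gm28438 was listed at 6315, 7051, 18754 and 18316 in Scr and 15013, 17348, 20663 and 16698 in siCasp8, so Scr replicates 1 and 2, which were highest for mt-Nd3, were lowest for its copy. The sum of both was 31106, 29101, 34177 and 29574 in Scr and 29015, 30768, 33445 and 27189 in siCasp8. The difference in the sum was -0.04 on the log2 scale (SE 0.064, limma adjusted p = 0.632), and the groups overlapped.

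The same libraries stood apart for other copies on chromosome 1, which were singled out after their values were seen. Gm10925, which has 0 differences from mt-Atp6 over 678 bases, was at 30.1 and 1189 in Scr replicates 1 and 2, at 24694 and 50536 in Scr replicates 3 and 4, and at 21730 to 36377 in siCasp8. Gm28661, with 0 differences from mt-Co2 over 681 bases, was at 2.86 and 237 in the first of these pairs, at 25006 and 44953 in the second, and at 24289 to 47365 in siCasp8. Added to their genes, these copies left mt-Atp6 at a log2 fold change of 0.09 in place of 0.05 and mt-Co2 at 0.12 in place of 0.02, neither called. Gm28437, which holds 99.9% of the stretches of 31 bases in mt-Co3, was at 0 and 4.43 in Scr replicates 1 and 2. It was at 125 and 710 in Scr replicates 3 and 4 and at 255 to 1640 in siCasp8. Gm28437 was called higher (log2 fold change 5.09, SE 1.57, limma adjusted p = 0.0213), with those low Scr values in the comparison. Gm29216, a copy of part of mt-Co1, was at 65322, 47607, 63948 and 57542 in Scr and 60563 to 70813 in siCasp8, so Scr replicate 1 did not stand apart there. Copies took 2.93% and 3.08% of the summed mitochondrial genes and copies in Scr replicates 1 and 2 and 4.82% to 7.68% in the other 6 libraries. Whether a read came from the mitochondrial gene or the nuclear copy cannot be told apart within identical stretches.

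**Figure D5:**
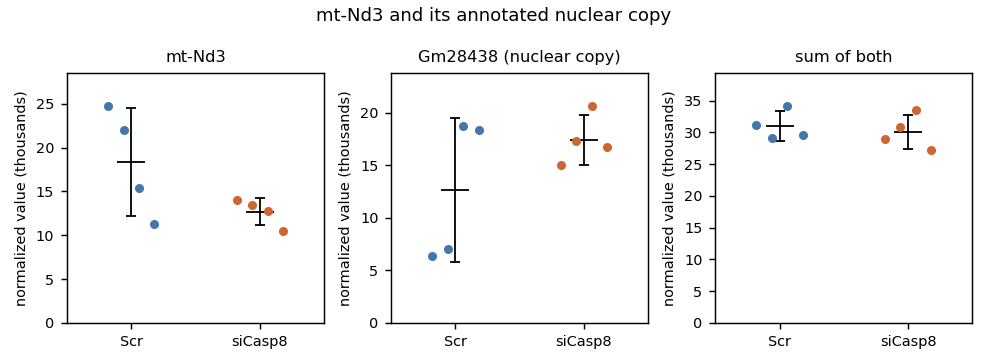
Normalized values (axis in units of 1000, linear from 0) of mt-Nd3, of its annotated nuclear copy Gm28438 and of their sum in each library, with group mean and SD (n = 4 each). Scr replicates 1 and 2 are high for mt-Nd3 and low for the copy, and the sums of all 8 libraries lie between 27189 and 34177.

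Assembly factors build the complexes without staying in them. Of the 8 tested Ndufaf genes, which serve complex I, 7 had a log2 fold change below 0 (median -0.15). Of the 8, 2 were called, both lower, or 25% against 40.2% of all tested genes. Ndufaf4 was 911, 758, 1089 and 845 in Scr and 676, 681, 782 and 711 in siCasp8 (-0.33, SE 0.097, limma adjusted p = 0.0170), where only siCasp8 replicate 3 reached above the lowest Scr library. Ndufaf5 fell from 432 ± 28.6 to 355 ± 30.7 (SD, n = 4 each) without overlap (-0.29, limma adjusted p = 0.0159). With depth as a covariate neither was called (adjusted p = 0.177 and 0.296). Of 9 tested complex I assembly factors with other names, 1 was higher, Tmem126b (0.16), and 0 were lower (median 0.03), or 11.1% called.

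Of 31 tested assembly factors of complexes II to V, 3 were higher and 6 lower (median -0.0025). The 9 called of 31 were a smaller share than the 40.2% of all tested genes (19.4% higher and 20.8% lower). Atpaf1, which assembles the head of complex V, fell from 1071 ± 17.4 to 681 ± 65.0 (SD, n = 4 each), a log2 fold change of -0.66 (SE 0.067, limma adjusted p = 9.3e-06). The complex IV factors Coa5 and Cox16 moved apart, with -0.29 and 0.31. Uqcc1 of complex III rose by 0.26, and its values in siCasp8 replicate 3 (1947) and the other siCasp8 libraries (2003 to 2013) were all above Scr.

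All 10 tested regulators of nuclear respiratory genes were called, 4 higher and 6 lower, with a median of -0.18, beside 19.4% higher and 20.8% lower among all tested genes. Esrra, a nuclear receptor that drives these genes with PGC-1 coactivators, rose from 2676 ± 144 to 3632 ± 317 (0.44, SE 0.061, limma adjusted p = 0.000112). Ppargc1b, a coactivator of that family, rose from 30.9 ± 5.25 to 65.6 ± 8.17 (1.07, limma adjusted p = 0.000621), while its relatives Ppargc1a and Pprc1 fell by 0.27 and 0.22 (SD, n = 4 each). With depth as a covariate 3 of the 10 were higher and 0 lower, or 30% against 18.5% of all genes, and Ppargc1a and Pprc1 were not called (adjusted p = 0.184 and 0.347).

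Coenzyme Q and cytochrome c carry electrons between the complexes. The list of genes for their synthesis or structure also held Cyc1, which encodes cytochrome c1 of complex III. Of its 16 tested genes, 5 were higher and 5, Cyc1 among them, lower (median 0.06). That is 62.5% called against 40.2% of all tested genes. With depth as a covariate 1 was higher and 3 lower, 25% against 18.5% of all genes. Cycs, the cytochrome c of somatic cells, fell from 3204 ± 230 to 2482 ± 94.5 (-0.37, SE 0.052, limma adjusted p = 0.000141), and Coq10b, a coenzyme Q binding protein, fell by 0.34. Coq8a and Coq9, which are needed for coenzyme Q synthesis, rose by 0.67 and 0.34 (SD, n = 4 each, where given), and the call of Coq9 was lost with depth as a covariate (adjusted p = 0.104).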

How the data were processed

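Poly-A RNA of 4 Scr and 4 siCasp8 libraries was measured, and groups were taken from the library titles. Per the submitters' processing notes, the tools were kallisto 0.44.0, DESeq2, sleuth and bcl2fastq 2.19, and the builds were GRCm38 and GRCh38, with no role stated. What the authors deposited is a normalized signal for each gene symbol. No source used here names the annotation. Each library summed to 44.1 to 45.6 M, and depth was estimated from the value of 1 read. Only 63.0% to 75.0% of low values lay within 0.1 read of a whole number, so no count model was used. A row without a symbol held 0.0481% to 0.0631% of each total and was left out.

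Genes with a mean of at least 10 were fitted in R 4.3.3 with limma 3.58.1 (trend, no covariate, pseudocount of 1, two-sided), which was tested on simulated data, with calls at an adjusted p below 0.05. Changes on the log2(value + 1) scale understate those of low genes. The design text calls the 4 libraries of a group biological replicates, without saying how cultures were separated. Members and lists were chosen with earlier results of these data known.

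Named were Casp8, all mitochondrial genes, called nuclear members with a mean of at least 50 (up to 6 per complex and direction by size), tissue isoforms, c ring and Sdh genes, called Ndufaf genes, pseudogenes that match the pattern and pass the filter, and the 2 called genes with the smallest adjusted p per list and direction. Any other gene was named after its values were seen. Promoters were also chosen after that, from the members called under each alternative other than the 2 added later.

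Positions and shared stretches of 31 bases came from GENCODE M21 (GRCm38), and promoters from RefSeq, where 76 members had an entry. For sums with copies, each annotated pseudogene with at least 5% of a member's stretches was added to the member that shares most with it, a rule refined after a first version gave the copy of mt-Atp6 to mt-Atp8. Of 23 matching rows with a mean under 10, 10 were at 0 in all libraries, 9 were subunits and 14 were copies. The 2 tested copies, Cox7c-ps1 (-0.72, limma adjusted p = 0.0666) and Ndufa12-ps (-0.13, limma adjusted p = 0.166), were not called, and Ndufb4c and Cox6c2, counted as subunits, are annotated as processed pseudogenes.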

Additional observations from a re-analysis of the deposited data

Results flagged for a closer look

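Of 142 groups of 4 libraries (71 named genes in 2 groups), 9 held a library far from the other 3, with a gap, as a share of the group's range, above Dixon's 95% critical value, and chance gives about 1 in 20. Among the subunits, Ndufs3 was at 1039 in Scr replicate 2 against 1158 to 1160 in the other Scr libraries. Ndufc1 was at 693 in siCasp8 replicate 3 against 574 to 581. Uqcrh was at 3119 in Scr replicate 1 against 3354 to 3381. Sdhd was at 4012 in siCasp8 replicate 2 against 4103 to 4107. Around the chain, Uqcc1 was at 1947 in siCasp8 replicate 3 against 2003 to 2013, and Higd1a at 662 in that library against 587 to 599. Mterf2 was at 415 in Scr replicate 2 against 504 to 515, Ucp2 at 667 in siCasp8 replicate 2 against 446 to 468, and Slc25a5 at 16458 in Scr replicate 1 against 15487 to 15595. The call of Ndufs3 was lost without Scr replicate 2, and also without siCasp8 replicate 1, 2 or 3. Those of Ndufc1 and Uqcrh were kept in all 8 fits that left out 1 library.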

How the results depend on the processing

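Of the 23 called nuclear subunits, 12 (7 higher, 5 lower) were called in each of the 8 fits that left out 1 library, and 4 under each alternative other than the 2 added later. Leaving out 1 library gave 8 to 16 nuclear subunits higher, 5 to 11 lower and 0 to 3 mitochondrial genes. There were 8 higher without siCasp8 replicate 2 and 9 without siCasp8 replicate 4, and 5 lower without Scr replicate 2, siCasp8 replicate 2 or siCasp8 replicate 4. No mitochondrial gene was called without Scr replicate 1 or siCasp8 replicate 1, 3 or 4, and 3 (mt-Co3, mt-Nd4l and mt-Nd6) without Scr replicate 3. The 1 gene called was mt-Nd1 under quantile normalization and without Scr replicate 2, and mt-Nd3 without Scr replicate 4. Casp8 stayed between -1.47 and -1.39. Upper quartile rescaling gave 22 higher and 5 lower nuclear subunits, and quantile normalization gave 4 lower and a nuclear median of 0.035. The depth covariate gave 1206 higher and 1409 lower genes in all, 4 higher and 2 lower nuclear subunits, 0 mitochondrial genes and a nuclear median of 0.039. Without the trend 9 nuclear subunits were higher, and without the filter 0 mitochondrial genes were called. After the data were seen, 2 alternatives were added: leaving out Scr replicates 1 and 2 gave 4 nuclear subunits lower and 0 mitochondrial genes, and adding copies turned Atp5g2 to 0.20. The cause was not tested, apart from the fewer libraries or added copies themselves. Same-numbered libraries deviated together only weakly (r from 0.04 to 0.17), though 4 of 4 Scr and 4 of 4 siCasp8 libraries correlated best with their own number, so numbers were not taken as pairs. The replicate block gave 16 higher and 10 lower nuclear subunits and 2 mitochondrial genes, mt-Nd6 and mt-Nd3 (-0.48, adjusted p = 0.00447). Of 70 named genes other than Casp8, 46 were called, 18 of them under each of those alternatives. Genes called in neither fit changed sign 61 times, in 19 genes, of which mt-Nd3 had the largest fold change. After these had been counted, such changes were judged against the spread between replicates and not listed as reversals. The deposited values are not reads, so no counting interval is given.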

Other observations

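Of 16 tested carriers and membrane proteins around the chain, 4 were higher and 3 lower. That is 43.75% called, near the 40.2% of all tested genes. Slc25a5, an ADP/ATP carrier of the inner membrane, fell from 15781 ± 454 to 11633 ± 208 (SD, n = 4 each), a log2 fold change of -0.44 (SE 0.032, limma adjusted p = 6.5e-07). Higd1a, a small inner membrane protein of the chain, fell by 0.47 (limma adjusted p = 0.000103). Vdac2, a channel of the outer membrane, rose from 9320 ± 445 to 11465 ± 145 (0.30, limma adjusted p = 4.7e-05, SD, n = 4 each), and Ucp2, an inner membrane carrier, rose by 0.59 (limma adjusted p = 0.00230). With depth as a covariate Ucp2 was not called (adjusted p = 0.124).

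Of 7 tested alternative electron donors, 1 was higher and 1 lower, or 28.6% called against 40.2% of all tested genes. The uncoupling genes Ucp1 and Ucp3 of the same list were under the filter and not tested. Etfa, which feeds electrons from fatty acid oxidation, rose by 0.17 (limma adjusted p = 0.00193). Gpd2, the glycerol phosphate dehydrogenase of the inner membrane, fell from 5314 ± 176 to 4363 ± 38.6 (SD, n = 4 each), a log2 fold change of -0.28 (limma adjusted p = 4.0e-05). Of 22 tested genes of mitochondrial DNA maintenance and transcription, Mterf2 (0.35) and Top1mt (0.21) were higher and Fastkd5 (-0.26) and Mterf3 (-0.17) lower. That is 18.2% called, against 40.2% of all tested genes, and 0 were called with depth as a covariate.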
